A study of Mus musculus with 10 samples.

Results

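The genes described here are 35 epithelial junction genes, matched by symbol and chosen for their known roles, not by a measured value. Earlier results of these data were known when they were chosen. They are 14 claudins, 7 other tight junction genes, 3 genes of adherens junctions and adhesion, 7 desmosomal genes and 4 regulators of epithelial gene expression. All 35 were among the 26063 genes of the deposited table, each under 1 identifier. RNA had been sequenced in bulk from 10 mammary tumours, 1 per mouse, of which 5 came from mice of the genotype 16IC/WT (16IC below) and 5 from mice of the genotype EIC/WT (EIC below). All mice were FVB/N females given doxycycline at 2 mg/ml, and their tumours were taken at end point. The labels give neither the age of the mice nor the meaning of the names 16IC and EIC, nor the promoter behind either allele, and the series title names a variant of HER2. Each tumour carries the name of its own animal, and the number after a genotype only tells tumours apart. The tumours of the 2 genotypes were compared, and it was asked whether any single tumour looks claudin-low.

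Epithelial cells are held together by tight junctions, adherens junctions and desmosomes. In tight junctions, claudins form the barrier and pores between cells, beside occludin and other MARVEL-domain proteins, and are tied to the actin cytoskeleton by scaffolds. Adherens junctions are built on the cadherin Cdh1 (E-cadherin), and desmosomes join desmosomal cadherins through plakoglobin, plakophilins and desmoplakin to keratin filaments. In the mammary gland these genes mark the epithelium, and a class of mammary tumours called claudin-low is known for low levels of Cldn3, Cldn4, Cldn7, Cdh1, Epcam and Ocln together with high levels of mesenchymal genes.

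Total counts per library ran from 14813940 to 16947400. Levels below are CPM, counts scaled to a common library total after TMM normalization, and differences are log2 of 16IC over EIC with edgeR's standard error (SE). Of the 35 genes, 32 passed edgeR's filter on low counts and entered its quasi-likelihood test. The tumours were epithelial by their keratins: Krt8 ran from 605 to 1167 CPM in 16IC and from 695 to 1809 CPM in EIC, and Krt18 from 556 to 1597 CPM in 16IC and from 577 to 1332 CPM in EIC. Krt19, another luminal keratin, ran from 0 to 342 CPM in 16IC and from 2.79 to 445 CPM in EIC. In bulk tissue, fewer epithelial cells and less RNA per cell cannot be told apart. Single libraries also held other tissue: 6 skeletal muscle genes summed to 0.972 to 331 CPM in 16IC and 2.21 to 2174 CPM in EIC, the highest in EIC 2, and 8 skin keratinocyte genes to 3.90 to 7.01 CPM in 16IC and 3.94 to 31.4 CPM in EIC, the highest in EIC 1.

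Every tumour expressed the main junction genes, and between the genotypes no junction gene passed edgeR's test. It called 0 of the 32 tested genes at an adjusted p under 0.05, as it called 0 of all 14915 genes tested (0%). At an unadjusted p under 0.05 there were 3, Marveld3, Cldn1 and Cldn4, which is 9.38% of those tested, against 13.1% of all genes tested. Of the 3, Marveld3 and Cldn1 were higher in 16IC, as were 6.84% of all genes tested at that p. DESeq2 called 1 junction gene, Marveld3, of the 33 it gave an adjusted p, against 2.11% of all genes with one (0.843% higher in 16IC). Marveld3 was also the one tested junction gene whose groups did not overlap, 3.12% of 32, against 2.59% of all genes tested. The junction genes' shares lie near the shares over all genes for DESeq2 and for groups without overlap, and below it at the unadjusted p. Of the 32 genes, 13 had a positive and 19 a negative log2 difference, with a median of -0.03, while 47.7% of all genes tested had a positive one, with a median of -0.02.

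**Figure D1:**
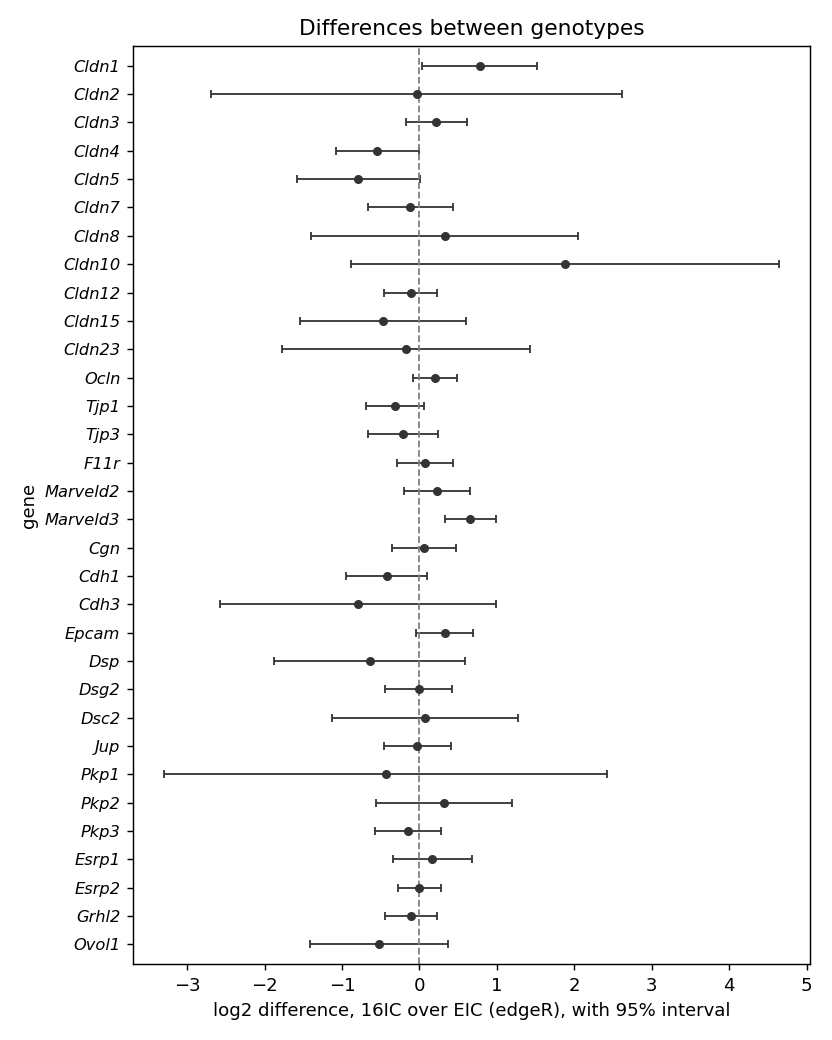
Log2 differences of 16IC over EIC for the 32 tested junction genes, from edgeR, with 95% intervals that are not adjusted for the number of genes. The interval of Marveld3 (0.33 to 0.99) lies clear of 0, those of Cldn1 and Cldn4 end close to it, and the widest are those of Pkp1, Cldn10 and Cldn2.

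Marveld3, a MARVEL-domain protein of tight junctions related to occludin, was higher in 16IC. Its level was 128, 112, 140.0, 107 and 107 CPM in 16IC tumours 1 to 5 and 73.6, 96.9, 78.2, 66.0 and 61.9 CPM in EIC tumours 1 to 5, so that every 16IC tumour lay above every EIC tumour. The means were 119 ± 14.4 CPM in 16IC and 75.3 ± 13.7 CPM in EIC (SD, n = 5 each), and the log2 difference was 0.66 with an SE of 0.15. DESeq2 gave an adjusted p of 0.0120, whereas edgeR's quasi-likelihood test, adjusted over all genes tested, gave 0.249. With 1 tumour left out, DESeq2 called Marveld3 in 6 of 10 fits, and its adjusted p was above 0.05 without 16IC 1, 16IC 3, EIC 1 or EIC 4 (highest 0.0651). The gene (ENSMUSG00000001672) lies on chromosome 8 from 109947914 to 109962203 on the minus strand (GRCm38). In the authors' deposited table its log2 fold change is 0.66 and its adjusted p 0.0120. These equal the DESeq2 values found here from the same counts, so they are not a separate result.

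The other tight junction genes varied little between tumours. Ocln, which encodes occludin, had 45.0, 53.8, 62.9, 47.3 and 59.4 CPM in 16IC tumours 1 to 5 and 43.1, 48.6, 51.5, 42.8 and 46.9 CPM in EIC tumours 1 to 5. Its highest level was 1.47 times its lowest, and the log2 difference was 0.20 (95% interval -0.08 to 0.49, edgeR adjusted p = 0.498). Marveld2, or tricellulin, which seals the corners where cells meet in threes, had 40.5 to 72.0 CPM in 16IC and 34.3 to 52.2 CPM in EIC. The scaffold Tjp1 (ZO-1) had 115 to 198 CPM in 16IC and 151 to 228 CPM in EIC, with a log2 difference of -0.32 (interval -0.69 to 0.06), and Tjp3 (ZO-3) one of -0.21. F11r, the junctional adhesion molecule JAM-A, had a difference of 0.07 (interval -0.29 to 0.43), and Cgn, the actin-linking protein cingulin, one of 0.06 (interval -0.35 to 0.47). Of the 7 tight junction genes other than claudins, 5 had a positive and 2 a negative log2 difference, and all 7 varied less within the genotypes than the median tested gene.

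The question of a claudin-low tumour was put to 6 genes: Cldn3, Cldn4 and Cldn7, which encode claudins of mammary epithelium, Cdh1, Epcam, which encodes an epithelial adhesion molecule known to bind claudin-7, and Ocln. The repressors Snai1, Snai2, Zeb1 and Zeb2, known for shutting down epithelial genes, bind the E-box letters CACCTG in the promoter of Cdh1 and of other epithelial genes. The promoters of the core genes are therefore shown, to set these letters beside the levels. For 5 of the 6, the 250 bases before the RefSeq start (GRCm38.p6) follow, read 5′ to 3′ on the gene's strand, with CACCTG on either strand in capitals. Cdh1 had no entry.
Cldn3, chr5:134985964-134986213, plus strand: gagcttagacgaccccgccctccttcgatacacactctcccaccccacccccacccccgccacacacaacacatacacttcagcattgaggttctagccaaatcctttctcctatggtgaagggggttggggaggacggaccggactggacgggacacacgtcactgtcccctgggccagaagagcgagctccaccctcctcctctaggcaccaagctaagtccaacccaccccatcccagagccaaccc
Cldn4, chr5:134946935-134947184, minus strand: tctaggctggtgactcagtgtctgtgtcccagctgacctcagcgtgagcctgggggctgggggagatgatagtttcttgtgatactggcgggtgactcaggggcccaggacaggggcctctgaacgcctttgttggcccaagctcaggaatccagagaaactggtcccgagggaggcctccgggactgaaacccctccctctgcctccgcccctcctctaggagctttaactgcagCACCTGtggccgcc
Cldn7, chr11:69964529-69964778, plus strand: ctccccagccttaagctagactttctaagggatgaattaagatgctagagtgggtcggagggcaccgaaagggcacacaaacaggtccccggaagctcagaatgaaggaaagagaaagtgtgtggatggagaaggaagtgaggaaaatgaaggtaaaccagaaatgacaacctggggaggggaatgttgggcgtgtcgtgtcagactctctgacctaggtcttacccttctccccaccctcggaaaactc
Epcam, chr17:87635729-87635978, plus strand: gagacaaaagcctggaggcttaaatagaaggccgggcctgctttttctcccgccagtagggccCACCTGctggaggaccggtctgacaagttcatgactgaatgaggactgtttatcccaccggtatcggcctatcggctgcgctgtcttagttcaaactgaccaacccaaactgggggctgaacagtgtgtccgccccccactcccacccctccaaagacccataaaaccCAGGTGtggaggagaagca
Ocln, chr13:100552719-100552968, minus strand: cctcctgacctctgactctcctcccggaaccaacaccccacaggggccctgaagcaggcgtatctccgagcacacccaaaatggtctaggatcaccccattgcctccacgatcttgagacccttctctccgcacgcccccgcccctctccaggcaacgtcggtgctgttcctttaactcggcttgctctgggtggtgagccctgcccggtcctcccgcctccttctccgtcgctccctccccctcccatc
Epcam had 2 such matches, Cldn4 had 1, and Cldn3, Cldn7 and Ocln had 0 in these windows. Of the 20 junction genes with an entry, 5 held at least 1 match (Cldn4, Cldn6, Tjp3, F11r and Epcam), and 17.2% of all 32851 windows of this length did. The letters AACCGGTT, a motif of the Grhl family that reads the same on both strands, were in 0 of the 20 windows and in 0.116% of all windows. A match is a description of letters and not a shown binding site.

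Cldn3 was abundant in every tumour, with 480.0, 617, 703, 616 and 601 CPM in 16IC tumours 1 to 5 and 427, 404, 655, 501 and 607 CPM in EIC tumours 1 to 5. Its highest tumour, 16IC 3, held 1.74 times the level of its lowest, EIC 2. The log2 difference was 0.22 (SE 0.18, edgeR adjusted p = 0.600). Cldn4, which lies 39279 bases from Cldn3 on chromosome 5, had 102, 85.9, 192, 108 and 89.6 CPM in 16IC tumours 1 to 5 and 121, 205, 176, 193 and 147 CPM in EIC tumours 1 to 5. In 4 of the 5 16IC tumours it lay below every EIC tumour, and 16IC 3 stood among the EIC tumours. The means were 116 ± 43.6 CPM in 16IC and 168 ± 34.5 CPM in EIC (SD, n = 5 each), the log2 difference was -0.55 (SE 0.24) and the edgeR adjusted p 0.374. Without 16IC 3 the log2 difference was -0.80 by DESeq2, with an adjusted p of 0.0189, and by edgeR -0.80, with an adjusted p of 0.403. Cldn7 had 236, 279, 146, 198 and 253 CPM in 16IC tumours 1 to 5 and 254, 131, 243, 246 and 331 CPM in EIC tumours 1 to 5. EIC 2 and 16IC 3 held the lowest levels, and the groups overlapped across most of their range (log2 difference -0.12, interval -0.66 to 0.43).

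Cdh1 had 411, 555, 351, 319 and 616 CPM in 16IC tumours 1 to 5 and 683, 403, 517, 685 and 732 CPM in EIC tumours 1 to 5. Its lowest tumours were 16IC 4 and 16IC 3, and the highest, EIC 5, stood 2.30-fold above 16IC 4. The log2 difference was -0.42 (SE 0.24, edgeR adjusted p = 0.456). Epcam had 1594, 1557, 2082, 1891 and 1582 CPM in 16IC tumours 1 to 5 and 1243, 1717, 1224, 1408 and 1345 CPM in EIC tumours 1 to 5. The 16IC tumours lay above 4 of the 5 EIC tumours, with EIC 2 among them, and the log2 difference was 0.33 (SE 0.17, edgeR adjusted p = 0.416). Neither gene passed a test. The 95% interval of the difference was -0.95 to 0.10 for Cdh1 and -0.04 to 0.69 for Epcam.

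**Figure D2:**
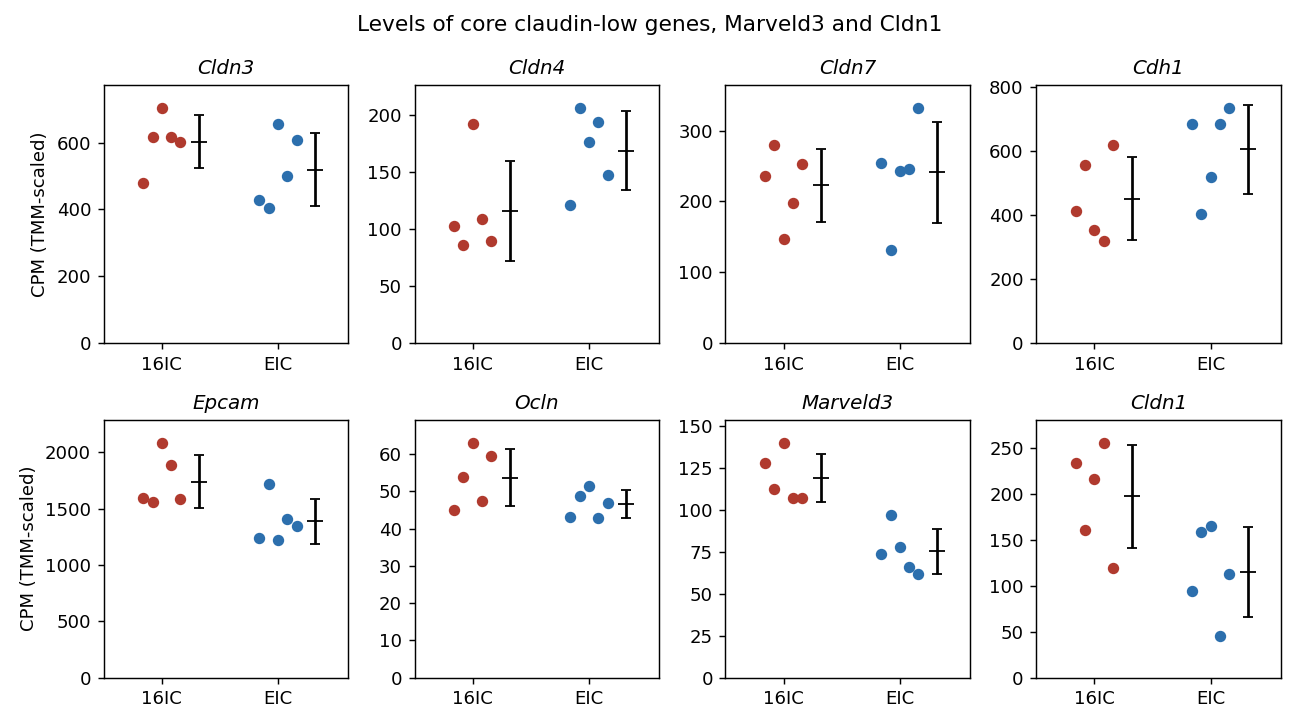
Levels in CPM of the 6 core genes, Marveld3 and Cldn1, 1 point per tumour, with 16IC on the left and EIC on the right of each panel and mean ± SD (n = 5) as bars. The groups overlap in every panel but that of Marveld3, where the lowest 16IC tumour had 107 CPM and the highest EIC tumour 96.9 CPM.

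No tumour looked claudin-low by these genes. A gene was counted as low in a tumour where its log2 CPM (prior count 2) lay more than 2 units under the median of all 10 tumours, and this held for 0 of the 6 genes in every tumour. It held for 0 genes also at a limit of 1 unit. The furthest below its median was Cldn7 in EIC 2, by -0.90 on the log2 scale, followed by Cdh1 in 16IC 4 (-0.75) and Cldn7 in 16IC 3 (-0.74). The mean over the 6 genes ran from -0.20 in 16IC 1 to 0.13 in EIC 5. The screen compares the tumours with each other, and no normal gland or known claudin-low tumour was analysed here. Per gene length, in the authors' FPKM, the mean levels over the 10 tumours were 744 for Epcam, 432 for Cldn3, 116 for Cldn7, 112 for Cdh1, 75.8 for Cldn4 and 11.5 for Ocln, and the lowest single value of the 6 was 9.76 FPKM, of Ocln.

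Mesenchymal genes that mark the claudin-low state did vary between tumours. Relative to the median tumour, the mean of 10 tested genes was -0.76, 0.21, -1.52, -1.26 and 0.10 log2 units in 16IC tumours 1 to 5 and 1.23, -0.68, 0.75, 1.27 and 0.40 in EIC tumours 1 to 5. The groups overlapped, with EIC 2 among the lower and 16IC 2 and 16IC 5 above it. In the 2 tumours highest for them, EIC 4 and EIC 1, the 6 core genes averaged 0.05 and -0.12 log2 units from their medians. All 10 tested mesenchymal genes had a negative log2 difference, and DESeq2 called 2 of them, against 2.11% of all genes: Twist1, a transcription factor (log2 difference -3.55, adjusted p = 0.00160, edgeR 0.261), and Vim, an intermediate filament protein (-1.28, adjusted p = 0.0167, edgeR 0.255). The repressors Zeb1, Zeb2, Snai1 and Snai2 were called by neither tool. Zeb1 averaged 8.85 ± 3.25 CPM in 16IC and 11.8 ± 3.15 CPM in EIC and Zeb2 12.3 ± 6.35 CPM in 16IC and 20.6 ± 4.85 CPM in EIC (SD, n = 5 each), and the edgeR log2 differences were -0.41 for Zeb1, -0.74 for Zeb2, -1.13 for Snai1 and -0.39 for Snai2. Fibroblast markers, like the mesenchymal genes, were lowest in 16IC 3 and 16IC 4 and highest in EIC 1 and EIC 4. Between these the order differed: 16IC 2 (3304 CPM) and 16IC 5 (3261 CPM) lay above EIC 3 (2538 CPM) and EIC 5 (2822 CPM). Summed over 7 markers, the levels ran from 387 CPM (16IC 3) to 3304 CPM in 16IC and from 1707 to 6568 CPM (EIC 1) in EIC. Of the 7 fibroblast markers, 6 had a negative log2 difference, and none was at 0 in any tumour. Their part in the mesenchymal values was not tested. Leukocyte markers, which are also known to be high in claudin-low tumours, summed to 76.5 to 192 CPM in 16IC and 119 to 220.2 CPM in EIC over 7 genes, of which all 5 tested had a negative log2 difference and 0 were called by DESeq2.

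**Figure D3:**
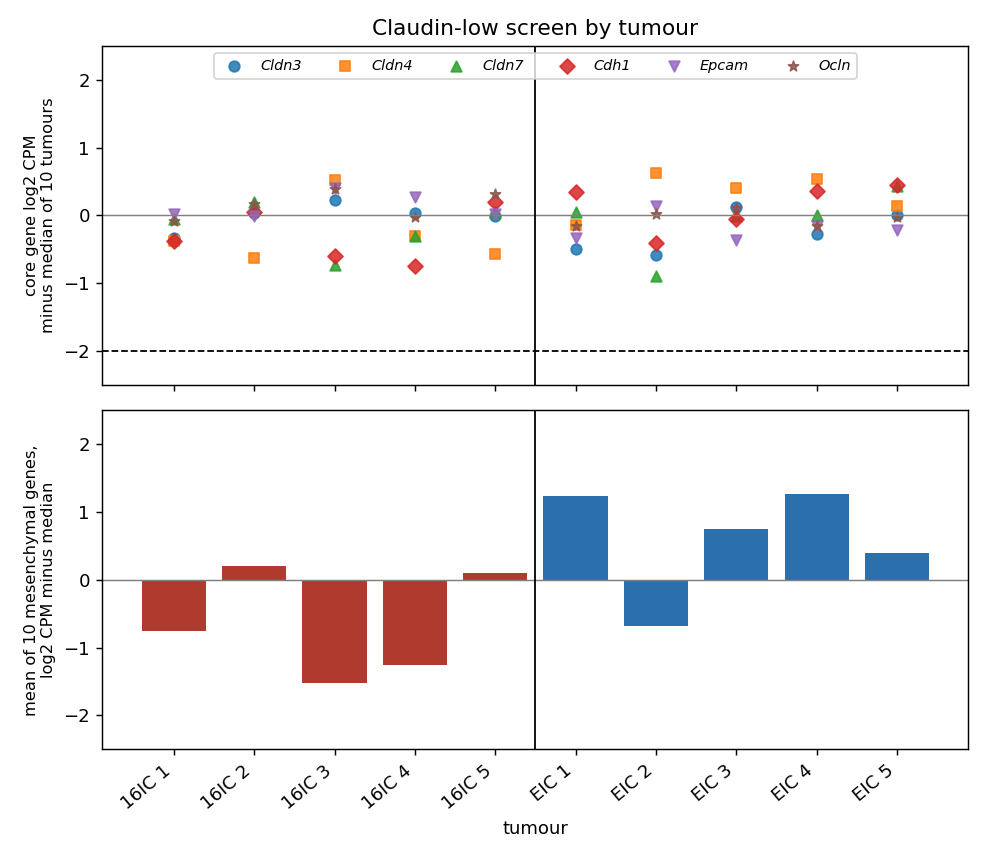
Upper panel: log2 CPM of each core gene in each tumour minus its median over the 10 tumours, with a dashed line at the limit of -2. Lower panel: the mean of the same difference over 10 mesenchymal genes. No core gene reaches the limit (lowest -0.90), while the mesenchymal mean runs from -1.52 in 16IC 3 to 1.27 in EIC 4.

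The remaining claudins were steady, patchy or nearly silent. Cldn1, which is needed for the barrier of the skin, had 234, 161, 217, 255 and 119.8 CPM in 16IC tumours 1 to 5 and 94.4, 158, 165, 45.6 and 112 CPM in EIC tumours 1 to 5. It had the smallest edgeR p of the claudins, with means of 197 ± 55.7 CPM in 16IC and 115 ± 48.9 CPM in EIC (SD, n = 5 each), a log2 difference of 0.78 (SE 0.34) and an edgeR adjusted p of 0.364, and the groups overlapped through 16IC 5 and 16IC 2. EIC 4 held the least Cldn1 and 16IC 4 the most. Cldn12 was steady, with 24.4 to 44.2 CPM in 16IC and 32.5 to 39.9 CPM in EIC. Cldn15, known as a cation pore of the intestine, was low, with 0.364 to 2.37 CPM in 16IC and 0.962 to 2.37 CPM in EIC.

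Cldn5, the claudin of blood vessel endothelium, had 5.97, 4.69, 2.55, 8.62 and 6.85 CPM in 16IC tumours 1 to 5 and 12.9, 5.93, 7.17, 9.24 and 14.3 CPM in EIC tumours 1 to 5. The lowest level was that of 16IC 3 and the highest that of EIC 5, and the log2 difference was -0.79 (SE 0.36, edgeR adjusted p = 0.382). The 7 endothelial markers summed to 73.2 CPM in 16IC 3, the lowest tumour for them too, with ranges of 73.2 to 223 CPM in 16IC and 137 to 229 CPM in EIC. Of these markers 3 had a positive and 4 a negative log2 difference, and none was at 0 in any tumour. Their part in the level of Cldn5 was not tested.

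Cldn6, Cldn9 and Cldn11 did not pass the filter on low counts and were not tested by edgeR. Cldn6, known from embryonic epithelia, had 52 counts over the 10 libraries and 0 in 6 of them, with at most 1.11 CPM in 16IC and 0.635 CPM in EIC. Cldn9, which lies 137 bases from Cldn6 on chromosome 17, had 37 counts and 0 in 5 libraries. Cldn11, the claudin of myelin and of Sertoli cells, had 3 counts in all and 0 in 8 libraries, where a count of 0 allows up to 0.176 to 0.216 CPM (3 counts of a library, counting error only).

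Several junction genes differed widely between tumours, including tumours of the same genotype. Of the 32 tested genes, 7 differed by more than 10-fold between their highest and lowest tumour of all 10, while 12 stayed within 2-fold. The 7 were Pkp1, Cldn2, Cldn10, Cldn8, Cldn23, Cdh3 and Dsp, singled out after their values were seen. For all of them but Dsp, the highest and the lowest tumour were of different genotypes. Without its lowest tumour, the range was 7.01-fold for Cldn8 and 6.76-fold for Cldn23 (without EIC 2) and 4.12-fold for Dsp (without EIC 5), and it stayed above 10-fold for the other 4. Their spread within genotypes, as an SD of log2 CPM, lay above that of 90.1% (Dsp) to 99.5% (Pkp1) of all genes tested. At the other end, Esrp2 and Ocln lay above only 6.05% and 6.18% of them, and over the 32 genes the median SD was 0.392, against 0.429 over all genes tested.

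Pkp1, a plakophilin of stratified epithelia, had 2.88, 289, 6.50, 1.44 and 379 CPM in 16IC tumours 1 to 5 and 244, 135, 68.0, 392 and 80.5 CPM in EIC tumours 1 to 5. It was near 1 to 7 CPM in 16IC 1, 16IC 3 and 16IC 4 and above 60 CPM in the other 7 tumours. The difference between the genotypes was -0.44 on the log2 scale with an SE of 1.29, and Krt19 was at 3.52, 3.04 and 0 CPM in those same 3 tumours and at 2.79 CPM in EIC 2. Cldn2, a claudin that forms pores for cations and water, had 2.09, 60.6, 2.67, 0.890 and 22.2 CPM in 16IC tumours 1 to 5 and 24.9, 0.178, 8.55, 26.1 and 31.1 CPM in EIC tumours 1 to 5. It was lowest in EIC 2, 16IC 4, 16IC 1 and 16IC 3 and highest in 16IC 2, a 341-fold range. That range rests on 3 counts in EIC 2 (95% exact counting interval of the ratio 116 to 1656), and it was 68.1-fold without EIC 2. Cldn10, a claudin of paracellular ion transport, had 20.3, 3.44, 106, 128 and 3.98 CPM in 16IC tumours 1 to 5 and 1.33, 47.4, 6.45, 15.2 and 0.722 CPM in EIC tumours 1 to 5. Its high tumours, 16IC 4, 16IC 3 and EIC 2, were among the low ones for Cldn2, and its log2 difference of 1.88 had an interval from -0.89 to 4.64.

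Cldn8, which forms a cation barrier in kidney tubules, had 96.2, 37.9, 13.7, 55.2 and 46.4 CPM in 16IC tumours 1 to 5 and 60.1, 1.13, 22.1, 47.7 and 67.8 CPM in EIC tumours 1 to 5. Cldn23 had 3.52, 14.1, 5.59, 2.94 and 19.9 CPM in 16IC tumours 1 to 5 and 10.7, 0.830, 8.37, 14.9 and 17.3 CPM in EIC tumours 1 to 5. Both genes were lowest in EIC 2, where Cldn2 was lowest as well. Cdh3, the P-cadherin of basal and myoepithelial cells, had 2.95, 9.62, 1.34, 1.23 and 15.1 CPM in 16IC tumours 1 to 5 and 19.9, 2.31, 18.7, 6.93 and 4.57 CPM in EIC tumours 1 to 5. It lay above 9 CPM in 16IC 2, 16IC 5, EIC 1 and EIC 3, and the 7 basal and myoepithelial markers summed to 21.9 to 197 CPM in 16IC and 38.5 to 651 CPM in EIC. Of these markers 6 of 7 had a negative log2 difference, and Krt5, Krt14 and Krt17 were each at 0 in 1 tumour. DESeq2 called 1 of the 7, Krt17, a basal keratin, with 0.655 ± 0.732 CPM in 16IC and 16.9 ± 11.2 CPM in EIC (SD, n = 5 each), an edgeR log2 difference of -4.65, an adjusted p of 5.19e-04 by DESeq2 and 0.249 by edgeR. The part of these markers in the level of Cdh3 was not tested, nor was that of the skin and muscle transcripts of EIC 1 and EIC 2 in any level given for those tumours.

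**Figure D4:**
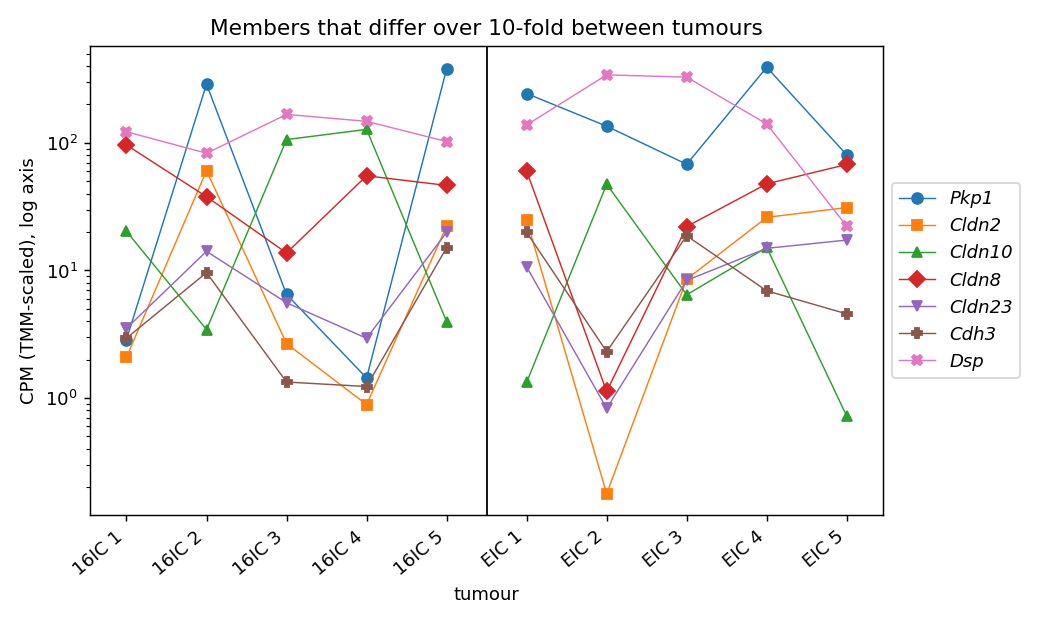
CPM on a log axis of the 7 junction genes that differed more than 10-fold between tumours, 16IC tumours left and EIC tumours right. Lines only join the points of a gene and carry no order. Pkp1 is low in 16IC 1, 16IC 3 and 16IC 4, Cldn2, Cldn8 and Cldn23 are lowest in EIC 2, and Dsp is lowest in EIC 5 (22.2 CPM).

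Among the desmosomal genes, 3 were steady and 4 were variable. Dsp, desmoplakin, which ties the plaque to keratins, had 122, 83.0, 167, 148 and 103 CPM in 16IC tumours 1 to 5 and 138, 342, 328, 141 and 22.2 CPM in EIC tumours 1 to 5. EIC 2 and EIC 3 held the most and EIC 5 the least, a 15.4-fold range within EIC that spanned all 16IC tumours, and the log2 difference was -0.64 (SE 0.56, edgeR adjusted p = 0.618, the smallest p of the desmosomal genes). The desmosomal cadherin Dsc2 had 75.6, 35.7, 109, 84.1 and 31.0 CPM in 16IC tumours 1 to 5 and 22.0, 136, 92.9, 41.1 and 26.6 CPM in EIC tumours 1 to 5. The plakophilin Pkp2 had 65.4, 49.9, 118, 77.8 and 49.8 CPM in 16IC tumours 1 to 5 and 34.8, 70.8, 116, 36.9 and 31.4 CPM in EIC tumours 1 to 5. For Dsp, Dsc2 and Pkp2 alike, 16IC 3 and EIC 3 were among the 3 highest tumours and EIC 5 was among the 2 lowest. The cadherin Dsg2, with 153 to 222 CPM in 16IC and 133 to 256 CPM in EIC, the shared plakoglobin Jup, with 484 to 828 CPM in 16IC and 511 to 723 CPM in EIC, and the plakophilin Pkp3, with 105 to 186 CPM in 16IC and 127 to 188 CPM in EIC, stayed within a 2-fold range over all 10 tumours. Of the 7 desmosomal genes, 2 had a positive and 5 a negative log2 difference, from -0.64 to 0.32, with 0 called by edgeR, 0 at an unadjusted p under 0.05 and 0 by DESeq2.

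The regulators of the epithelial programme were expressed in every tumour. Esrp1 and Esrp2, splicing factors that set epithelial isoforms, had log2 differences of 0.17 (interval -0.34 to 0.68) and -0.0036 (interval -0.28 to 0.27). Esrp1 was lowest in EIC 2, at 158 CPM, and in 16IC 3, at 168 CPM, and lay between 239.7 and 342 CPM in the other 8 tumours. Grhl2, a transcription factor that activates Cdh1 and claudin genes, had 73.0 to 115 CPM in 16IC and 84.6 to 120.3 CPM in EIC (log2 difference -0.11, interval -0.44 to 0.22). Ovol1, a transcription factor that restrains mesenchymal genes, was low, with 3.24, 4.63, 6.13, 2.40 and 4.04 CPM in 16IC tumours 1 to 5 and 8.60, 2.49, 9.20, 3.74 and 5.41 CPM in EIC tumours 1 to 5. It had the smallest p of the 4 regulators (log2 difference -0.53, SE 0.40, edgeR adjusted p = 0.574). Ovol1 shares 19.8% of its exonic length with a pseudogene on the opposite strand, so its level is uncertain. That pseudogene had 45 counts in all, against 823 for Ovol1. Esrp2 shares 5.05% of its exonic length with Nfatc3 on the opposite strand, which had 12836 counts against 14449 for Esrp2, so its level is uncertain as well.

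**Figure D5:**
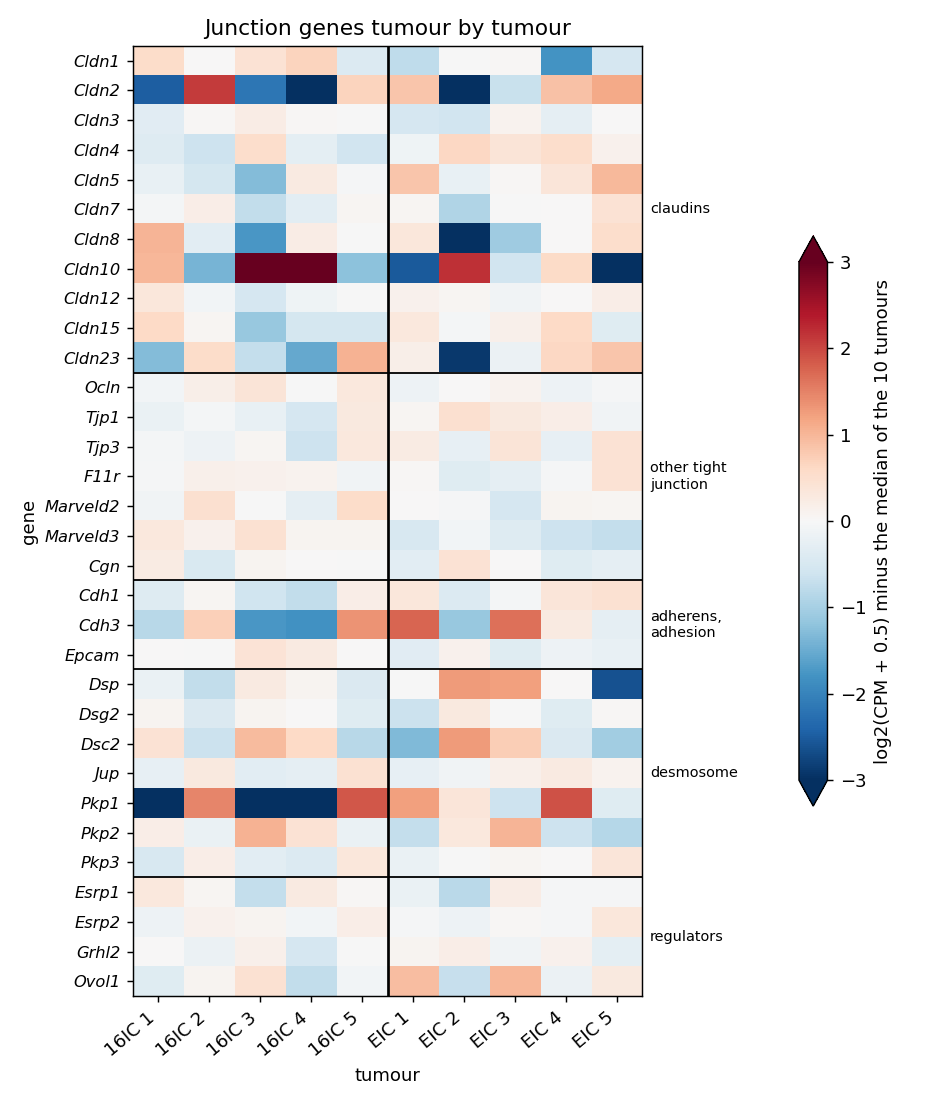
Log2(CPM + 0.5) of the 32 tested junction genes in each tumour, minus the gene's median over the 10 tumours, with genes in rows by role and 16IC tumours left of EIC tumours. Colours beyond 3 units are drawn as 3. Most rows are pale, and the strong colours fall in Cldn1 (EIC 4), Cldn2, Cldn8, Cldn10, Cldn23, Cdh3, Dsp, Dsc2 and Pkp1 and in tumours of both genotypes.

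Across the tumours, no single tumour was the lowest for most of the junction genes. Of the 32 genes, EIC 2 was the lowest tumour for 8 and the highest for 7, 16IC 4 the lowest for 7 and the highest for 2, and EIC 5 the lowest for 4 and the highest for 7. The median deviation of the 32 genes from their medians ran from -0.11 in 16IC 4 to 0.07 in 16IC 3 on the log2 scale. Some genes did share a division of the tumours. Cdh1, Cldn7, Cldn2, Cldn23 and Cdh3 were each lower in 16IC 1, 16IC 3, 16IC 4 and EIC 2 than in every other tumour. Epcam and Cldn10 were each higher in those tumours than in every other. Cldn3, Cldn4 and Ocln did not divide the tumours this way. The mesenchymal mean did, at -1.52 to -0.68 log2 units in 16IC 1, 16IC 3, 16IC 4 and EIC 2 and 0.10 to 1.27 in the rest. So did the basal and myoepithelial marker sum, at 21.9 to 38.5 CPM in those tumours and 98.6 to 651 CPM in the rest. Fibroblast and leukocyte marker sums were also lower in those tumours than in every other, while luminal, endothelial and adipocyte sums were not. Low Cdh1 and Cldn7 thus lay beside low mesenchymal genes in those tumours. Beyond the junction genes, Krt8, Krt19 and Snai1 were each lower in those tumours than in every other, while Krt18, Vim and Zeb1 were not. The share of all genes tested that divide the tumours this way is not given here, so the division cannot be read as particular to junction genes. The division was seen after the values were known and was not tested. Correlations over the 10 tumours were computed for 6 pairs, which did not include Cdh1 with Cldn7 or with Epcam. Of the 6 pairs, 0 passed the permutation test after adjustment. The strongest was negative, between Epcam and Cldn7, whose proteins are known to bind each other: Pearson r was -0.70 (permutation p = 0.0254, adjusted 0.153) and Spearman rho -0.70 (permutation p = 0.0306, adjusted 0.184). Pearson r was -0.62 without 16IC 3 and EIC 3, the tumours farthest from the median of Epcam. A genotype holds 5 tumours, too few to give a correlation within it. For the neighbours Cldn3 and Cldn4, r was -0.12 and rho -0.15 (permutation p = 0.720 and 0.682), and r was 0.18 without EIC 1 and EIC 2. The other 4 pairs (Cldn6 with Cldn9, Cldn3 with Cldn7, Grhl2 with Cdh1 and Esrp1 with Cdh1) had r between -0.07 and 0.18, rho between -0.15 and 0.04, and permutation p-values of at least 0.611 before and 0.849 or more after adjustment. Leaving out the 2 farthest tumours moved r to between -0.86 (Esrp1 with Cdh1) and 0.44 (Cldn6 with Cldn9), and turned the sign of r in each of these 4 pairs. Cldn6 was at 0 counts in 6 libraries and Cldn9 in 5, so the values of that pair rest on levels near the floor.

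A wider list of 63 other junction, polarity and epithelial genes was counted in the same way. Of these, 57 were in the table and 47 were tested, 22 with a positive and 25 with a negative log2 difference (median -0.02). edgeR called 0 of the 47, 6 had an unadjusted p under 0.05 (12.8%, against 13.1% of all genes tested), and DESeq2 called 1, against 2.11% of all genes. That 1 was Cxadr, the coxsackievirus and adenovirus receptor, an adhesion protein of tight junctions, which had 83.5, 96.9, 97.9, 84.5 and 105 CPM in 16IC tumours 1 to 5 and 184, 151, 189, 137 and 136 CPM in EIC tumours 1 to 5. Every 16IC tumour lay below every EIC tumour. The log2 difference was -0.77 (SE 0.14), with an adjusted p of 3.33e-04 by DESeq2 and 0.154 by edgeR, and DESeq2 called it in all 10 fits with 1 tumour left out. Cxadr shares 9.39% of its exonic length with Btg3 on the opposite strand, and no source used here states whether the counting used strand, so its level is uncertain.

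The next smallest p-values of that list were those of Dsg3, Vcl and Crb3, and neither tool called them. Dsg3, a desmosomal cadherin of stratified epithelia, had 0.949 ± 0.427 CPM in 16IC and 3.49 ± 2.44 CPM in EIC (SD, n = 5 each), a log2 difference of -1.88 and an edgeR adjusted p of 0.292. Vcl, vinculin, which links cadherin complexes to actin, had 74.5 ± 21.7 CPM in 16IC and 109 ± 8.18 CPM in EIC, a difference of -0.56 and an adjusted p of 0.294 by edgeR, with 25.5% of its exonic length shared with Ap3m1 on the opposite strand. Crb3, an apical polarity protein, had 32.1 ± 8.38 CPM in 16IC and 21.1 ± 5.35 CPM in EIC, a difference of 0.60 and an adjusted p of 0.322 by edgeR. The desmosomal cadherins of the epidermis, Dsc1 and Dsg1a, were at 4.97 and 3.12 CPM in EIC 1 and at no more than 0.125 CPM in every other tumour, in the library that also held the most skin keratinocyte transcripts.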

How the data were processed

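RNA of 10 mouse mammary tumours was sequenced, 5 per genotype. The submitters' processing notes name GRCm38 (mm10) and the tools STAR, Trimmomatic, HTSeq, limma and edgeR. Versions, strand setting and annotation release remain not given in the sources used here. The deposited table of 26063 genes gives raw counts, which the tests used. Beside them stand normalized counts, a signal the authors made by dividing counts by 1 factor per library, the authors' FPKM, used to set genes side by side, and the authors' p-values and log2 fold changes (16IC over EIC).

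Genes were matched by symbol. Counts were scaled by TMM, filtered with filterByExpr (minimum count 10), which left 14915 genes, and tested with edgeR 4.0.16 (quasi-likelihood, robust, genotype only) in R 4.3.3, with Benjamini-Hochberg adjustment over all genes tested and a threshold of 0.05. The step was also run on simulated counts, with changes larger than the log2 difference of any tested junction gene. That run does not show what the test can detect at the differences given here. DESeq2 1.42.0, other scalings and filters and leaving out each tumour were alternatives. Correlations used 100000 permutations of log2 CPM (prior count 2). Overlaps between genes came from GENCODE mouse release 21, and promoters from RefSeq. The counts of 16IC 2 and 16IC 5, the closest pair of a genotype, still differed by a chi-square of 26.3 per degree of freedom. Genes given tumour by tumour were the 6 core genes, any called by a tool or without overlap, and the smallest p of each of 5 role classes, and others were chosen after their values were seen. The genes and lists were chosen with earlier results of these data known.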

Additional observations from a re-analysis of the deposited data

Results flagged for a closer look

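In 6 of the 64 groups of 5 tumours (32 genes in 2 genotypes), 1 tumour lay far from the other 4 on the log2 scale by Dixon's ratio. Chance flags about 1 in 20 groups where values are independent and normal. The groups share the same tumours, and the share flagged over all genes tested is not given, so no excess can be read from the 6. EIC 2 was the low tumour for 3 claudins: Cldn2, at 0.178 CPM against 8.55 to 31.1 CPM in the other EIC tumours, Cldn8, at 1.13 CPM against 22.1 to 67.8 CPM, and Cldn23, at 0.830 CPM against 8.37 to 17.3 CPM. The same library held the most skeletal muscle transcripts (2174 CPM over 6 genes), whose part was not tested. 16IC 3 was the high tumour for Cldn4, at 192 CPM against 85.9 to 108 CPM in the other 16IC tumours, and the low one for Esrp1, at 168 CPM against 281 to 342 CPM. EIC 3 was the low tumour for Marveld2, at 34.3 CPM against 47.6 to 52.2 CPM in the other EIC tumours.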

How the results depend on the processing

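No paired analysis was possible because the tumours of the genotypes carry no shared numbers in the labels. With RLE scaling, library size only, no filter on low counts or at least 1 CPM in 5 libraries, edgeR's count of called genes stayed at 0 for the 35 genes, the wider list and all genes. With library size only the median of all genes tested was -0.07 and 13 of the 32 genes stayed positive. DESeq2 called 1 of the 35 genes, 1 of the wider list and 356 of all genes. With 1 tumour left out, edgeR called 0 of the 35 genes, 0 of the wider list and 0 to 2 of all genes (1 without EIC 1, 2 without EIC 2), and DESeq2 called 0 to 1 (Marveld3 in 6 fits, Cldn4 without 16IC 3), 1 to 2 (Cxadr in all, with Vcl without 16IC 5, Cdh2 without EIC 2 or Dsg3 without EIC 5) and, of all genes, 243, 549, 226, 178 and 579 without 16IC 1 to 5 and 217, 839, 350, 203 and 286 without EIC 1 to 5.

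The sign of Cldn7 turned without 16IC 3 (0.0047 by edgeR, 0.0060 by DESeq2) and without EIC 5 (0.027 by edgeR, 0.032 by DESeq2), with a lowest value of -0.27 without EIC 2 by edgeR. The other 13 genes named by rule kept their sign in every fit run. The range for Marveld3 was 0.60 to 0.77, for Cldn4 -0.80 to -0.46, for Dsp -0.93 to -0.33 and for Cxadr -0.83 to -0.71 by edgeR with 1 tumour left out. The claudin-low screen found 0 genes at a limit of 1 log2 unit, with library size only and with a prior count of 0.5. With 1 tumour left out, r ran from -0.75 to -0.56 for Epcam and Cldn7, and changed sign for Cldn3 and Cldn4 (-0.35 to 0.18), Cldn6 and Cldn9 (-0.29 to 0.10), Cldn3 and Cldn7 (-0.33 to 0.55), Grhl2 and Cdh1 (-0.48 to 0.34) and Esrp1 and Cdh1 (-0.088 to 0.45). The cause was not tested. Low counts limit Cldn6, Cldn9 and Cldn11, and the spread between 5 tumours limits the variable genes.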
